A study of Mus musculus with 4 samples.

Results

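The cells described here are non-cycling cultured mouse muscle cells with high Myog and little Acta1 or Myh3 messenger RNA. Myog encodes myogenin, the transcription factor whose appearance marks commitment to muscle differentiation. Acta1 and Myh3 encode skeletal alpha-actin and embryonic myosin heavy chain, components of the contractile apparatus. Counts of a gene per 1000000 UMIs (CPM) were computed for each cell from unique molecular identifiers (tags that mark single captured molecules) summed over 4 files. A cell was a member when Malat1, a nuclear RNA, was at least 1000 CPM, the proliferation genes Mki67 and Top2a together were under 75 CPM, Myog was at least 1500 CPM, and Acta1 and Myh3 together were under 1000 CPM. The rule found 302 of 5481 kept cells, a share of 5.51% (exact 95% binomial interval 4.92 to 6.15%, counting error only). They were 17.2% of the 1759 Myog-high non-cycling cells. The members were thus chosen by measured values of these 6 genes, so their levels are a description, and because every other gene came from the same cells and counts, no difference below carries a test.

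Muscle stem cells from MyoD-KI mice, which carry a reporter at the MyoD locus, had been cultured for 5 days, and a flow cytometer then collected the MyoD-tdTomato-high cells for droplet 3′ single-cell RNA sequencing. The samples form 1 group, with no untreated or wild-type control, and the tdTomato-low cells of the same culture were not analysed here. The 4 files held the same cells: each pair shared 5946 to 5965 barcodes, 99.9% of the smaller file, and the files were counted as 1 sample. Ranges over files therefore show how repeatable the counting of these cells was, not how mice or cultures vary. The intervals given for levels and ratios cover counting error only.

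Members were set beside other non-cycling cells of the same sort. The 385 onset cells had Myog of 100 to under 1500 CPM and Acta1 and Myh3 together under 1000 CPM. The 561 Myog-low cells had Myog under 100 CPM and the same limit on Acta1 and Myh3. Among Myog-high cells with more Acta1 and Myh3, 1040 intermediate cells lay between 1000 and 10000 CPM and 417 late cells at or above 10000 CPM, 1457 cells in all. The remaining 90 non-cycling cells had less Myog but at least 1000 CPM of Acta1 and Myh3 and entered no group. These groups are ranges of measured levels rather than cell types, and many cells lay close to a border. Within a factor of 1.25 of the Acta1 and Myh3 border, 45 cells fell inside and 45 outside, and at the Myog border 34 fell inside and 24 outside. The 5 members nearest the Myog border had 1510 to 1555 CPM, and the 5 cells just outside it had 1394 to 1483 CPM. Nearest the Acta1 and Myh3 border, 5 members had 973 to 999.7 CPM and 5 excluded cells had 1006 to 1049 CPM.

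**Figure D1:**
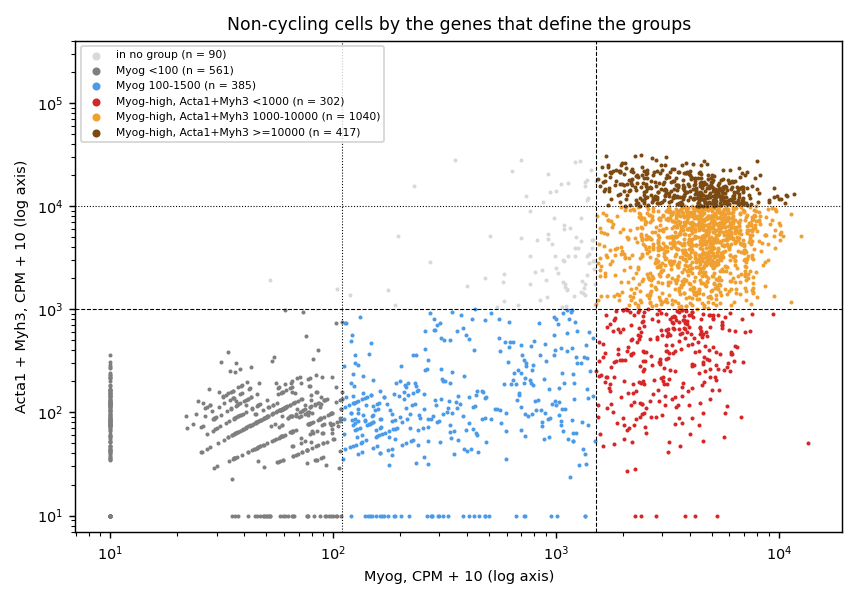
Each point is 1 of 2795 non-cycling cells, placed by Myog (x axis) and by Acta1 and Myh3 together (y axis), both as CPM plus 10 on log axes, with dashed lines at the borders of the 302 members (red) and dotted lines at 100 CPM of Myog and 10000 CPM of Acta1 and Myh3. The cells cover the borders without a gap, and the members are a range within a continuum.

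In adult muscle, activated stem cells proliferate as myoblasts under Pax7, Myf5 and MyoD, then switch on myogenin and the cyclin-dependent kinase inhibitor p21, and leave the cell cycle. Committed cells, called myocytes, fuse through the membrane proteins Myomaker and Myomixer and build sarcomeres. MyoD and myogenin are basic helix-loop-helix proteins that bind the E-box, the DNA motif CANNTG, together with E-protein partners, and Mef2 proteins act with them at muscle genes.

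The proposed name for these cells was committed cells before sarcomere gene induction. Myog was required by the rule, and all cells had been sorted for a MyoD reporter, so neither Myog nor Myod1 can check that name. Myog, Myod1 and Tnnt1, the markers given for the cells, were all present: Myog was 3241, 3256, 3263 and 3230 CPM in the 4 files (single cells 1510 to 13450 CPM, median 3159), Tnnt1, slow skeletal troponin T, 1687 CPM and Myod1 752 CPM. Tnnt1 was also present in other groups, at 377 CPM in Myog-low, 925 in onset and 3145 in late cells. Several sarcomere genes other than Acta1 and Myh3 were already well above their level in Myog-low cells, which goes against the last words of the name. Ttn, which encodes the giant spring protein titin, was 588 CPM in Myog-low cells, 1769 in onset cells, 3085 in the members and 7989 in late cells. Mylpf, a fast myosin light chain, was 203, 650, 1640 and 12940 CPM in the same order. Actc1, cardiac alpha-actin and the first alpha-actin of developing muscle, was 34.4, 63.0, 817 and 5316 CPM. Other sarcomere genes were not above that level, such as Ankrd1, a stretch-responsive repeat protein (485 CPM in Myog-low cells and 430 in the members), and Pdlim5, a Z-disc protein (47.2 and 35.2 CPM), and the intermediate filament gene Des was 904 and 1081 CPM. The cells are therefore called by their rule, as Myog-high cells with low Acta1 and Myh3, or simply the members.

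Promoter sequences are shown for 6 genes that stand for the patterns below: the defining factor Myog, the contractile genes Tnnt1, Mybpc1 and Mylpf, the transcription factor Sox8, which was highest in the members, and Casq2, which was hardly present in them. Each run covers 250 bases before to 50 after a RefSeq transcription start on GRCm38.p6, read 5′ to 3′ on the gene's strand, with every E-box CANNTG in capitals. The windows were chr1:134289754-134290053 (plus strand), chr7:4515926-4516225 (minus), chr10:88605103-88605402 (minus), chr7:127211358-127211657 (plus), chr17:25570637-25570936 (minus) and chr3:102086165-102086464 (plus).
Myog: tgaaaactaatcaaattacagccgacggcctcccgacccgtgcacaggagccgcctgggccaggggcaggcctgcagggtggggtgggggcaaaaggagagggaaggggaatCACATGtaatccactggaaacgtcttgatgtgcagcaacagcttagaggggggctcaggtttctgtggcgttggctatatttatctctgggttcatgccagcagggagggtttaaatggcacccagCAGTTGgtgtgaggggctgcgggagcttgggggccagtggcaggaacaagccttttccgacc
Tnnt1: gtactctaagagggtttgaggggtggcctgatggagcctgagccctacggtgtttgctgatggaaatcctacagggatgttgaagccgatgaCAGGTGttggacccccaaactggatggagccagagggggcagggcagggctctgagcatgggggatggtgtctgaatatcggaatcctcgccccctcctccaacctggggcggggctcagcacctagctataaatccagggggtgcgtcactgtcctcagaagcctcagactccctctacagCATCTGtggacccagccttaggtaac
Mybpc1: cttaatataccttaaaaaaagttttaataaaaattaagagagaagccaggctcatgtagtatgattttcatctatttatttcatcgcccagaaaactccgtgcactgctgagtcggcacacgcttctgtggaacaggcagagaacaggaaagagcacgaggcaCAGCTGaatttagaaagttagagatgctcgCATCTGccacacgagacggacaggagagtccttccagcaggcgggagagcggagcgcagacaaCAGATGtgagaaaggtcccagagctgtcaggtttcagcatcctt
Mylpf: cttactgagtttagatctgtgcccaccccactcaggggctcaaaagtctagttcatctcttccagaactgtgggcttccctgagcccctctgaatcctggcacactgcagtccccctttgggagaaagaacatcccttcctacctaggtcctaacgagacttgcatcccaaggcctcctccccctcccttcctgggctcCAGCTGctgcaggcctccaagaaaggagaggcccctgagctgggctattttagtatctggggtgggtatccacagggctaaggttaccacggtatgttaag
Sox8: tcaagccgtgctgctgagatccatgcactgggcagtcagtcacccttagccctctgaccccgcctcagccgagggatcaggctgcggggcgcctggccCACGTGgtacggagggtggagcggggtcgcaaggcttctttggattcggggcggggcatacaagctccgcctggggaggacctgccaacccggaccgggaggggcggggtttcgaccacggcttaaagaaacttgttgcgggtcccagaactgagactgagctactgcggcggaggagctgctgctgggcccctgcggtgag
Casq2: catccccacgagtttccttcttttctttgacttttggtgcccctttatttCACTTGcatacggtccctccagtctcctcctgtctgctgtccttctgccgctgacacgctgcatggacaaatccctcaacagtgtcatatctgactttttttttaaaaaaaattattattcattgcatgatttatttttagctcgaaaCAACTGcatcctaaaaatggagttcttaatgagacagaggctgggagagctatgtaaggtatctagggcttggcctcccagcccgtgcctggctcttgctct
CANNTG is its own reverse complement, so a match counts for both strands. It was found in 72.3% of all 32851 promoters of this length in the RefSeq table, in 16.3% as CAGCTG and in 20.2% as CAGGTG or its reverse complement. Mylpf and Mybpc1 held the CAGCTG form and Tnnt1 the CAGGTG form. In the 187 promoters of 113 genes at least 2-fold higher in the members than in onset cells, CAGCTG was in 28.9%, against 14.9% of the promoters of all genes past the level minimum. For the 224 promoters of 164 genes at least 2-fold lower the share was 15.2%. With only the first listed promoter of each gene, the shares were 28.3% and 13.4%. For genes lower in the members than in the cells with more Acta1 and Myh3 the share of promoters was 27.9%, and for genes higher it was 16.7%. Single promoters did not follow the shares: that of Actc1 held no CAGCTG, and that of Tm4sf1, lower in the members than in onset cells, held 2. A match describes letters in a window and shows no binding.

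Facts of the whole set bear on the values as follows. The files held 62627341 to 68898900 UMIs each. Members had a median of 9285 UMIs per cell and file, close to the 9366 of onset cells and below the 11477 of cells with more Acta1 and Myh3. Ribosomal protein genes took 22.4% of UMIs in the members, 22.4% in onset cells and 17.9% in late cells, and median mitochondrial shares were 3.97 to 4.10% in the 5 groups. The median log2 ratio of all genes was 0.19 for members against cells with more Acta1 and Myh3, and −0.04 against onset cells. Ratios below are to be read against those shifts.

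Genes were compared where the higher group had at least 20 CPM and a mean of 50 UMIs per file, on the scale of log2 of CPM plus 1, and a gene was called higher or lower when it differed at least 2-fold with the same direction in all 4 files. Against the 1457 cells with more Acta1 and Myh3, 242 of 5918 genes (4.09%) were higher in the members and 284 (4.8%) lower. Against the 385 onset cells, 145 of 6241 genes (2.32%) were higher and 223 (3.57%) lower. These shares are the background for every list below. A gene low in 1 group could pass the minimum only through the other group, which set its direction in advance. List counts and list medians are therefore partly set by the minimum and are a description only. Scaling by TMM factors, a method that trims extreme genes, changed the first split to 101 higher and 425 lower, so 19.2% rather than 46.0% of called genes were higher, and centring on the median ratio gave 27.2%. Leaving mitochondrial and ribosomal protein genes out of the totals gave 334 higher and 297 lower. Against onset cells TMM factors gave 173 higher and 169 lower, so 50.6% rather than 39.4% were higher, and whether more genes were higher or lower depended on the scaling in both comparisons. Both comparisons use the same 302 cells, so their results are not independent of each other.

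Among myogenic regulators, Myod1 and Rbm24 differed from both neighbouring groups by less than 2-fold, and Mef2c lay above onset cells and below the cells with more Acta1 and Myh3. Myod1 was 746, 757, 764 and 740 CPM in the 4 files, slightly above the 674 CPM of onset cells and the 575 CPM of cells with more Acta1 and Myh3. Both differences were well under 2-fold, and with TMM factors the log2 ratio to the latter was 0.09. Rbm24, an RNA-binding protein that acts in muscle splicing and messenger stability, was 739, 730, 747 and 725 CPM. It was 150 CPM in Myog-low cells, 509 in onset cells, 554 in intermediate cells and 420 in late cells, so its level was highest in the members among the 5 groups, by less than 2-fold against the onset and intermediate cells. Mef2a was 989 CPM in the members and 985 CPM in late cells, with 1383 CPM in between.

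Mef2c, whose protein acts with myogenin at muscle genes, was 112, 118, 114 and 126 CPM in the members, 831 CPM in intermediate cells and 1875 CPM in late cells. The log2 ratio to cells with more Acta1 and Myh3 was −3.29 (95% counting interval −3.45 to −3.14). It was still 2.84-fold above onset cells. After thinning every cell to 5000 UMIs, a Mef2c UMI was found in 29.5% of members (interval 24.2 to 35.2%), 8.65% of Myog-low cells, 13.8% of onset cells and 84.7% of cells with more Acta1 and Myh3. Without thinning the shares were 42.8, 14.2, 23.7 and 89.96%. Thinning left out 18 members.

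Of 28 myogenic factors past the minimum against onset cells, 5 were higher (Mef2c, Tead4, Rbm38, Zeb1 and Sox6) and 1, Myf5, was lower; the list median was −0.14. Tead4, a partner of YAP that acts at muscle promoters, was 34.8 CPM in onset cells and 91.8 in the members. Zeb1, a zinc-finger repressor, was 143 and 347 CPM, and Sox6, which represses slow-fibre genes, 41.3 and 104 CPM. Rbm38, a p53-responsive RNA-binding protein, was 6.36 and 22.2 CPM. Myf6, which encodes MRF4, the myogenic factor of maturing fibres, was 2.73 CPM in onset cells, 2.96 in the members and 32.0 in late cells. Of 27 factors past the minimum against cells with more Acta1 and Myh3, 1 was higher (Id2, an inhibitor of helix-loop-helix factors, 130 against 64.2 CPM) and 1 lower (Mef2c). Id2 was not called with TMM factors or after centring. Id3, another such inhibitor, was 1384 CPM in Myog-low, 1076 in onset, 539 in members and 359 in late cells.

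**Figure D2:**
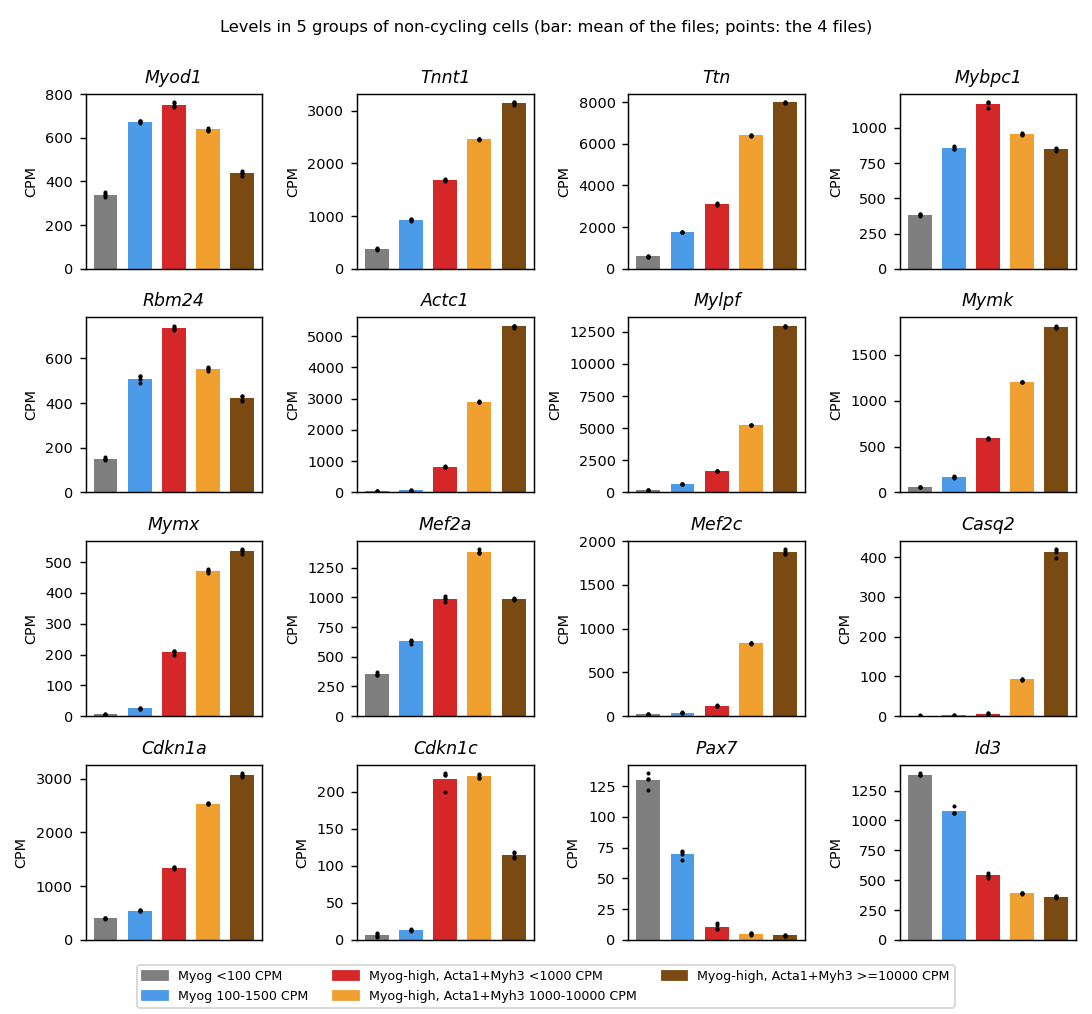
Bars give the mean CPM of the 4 files (points) for 16 genes in the 5 groups of non-cycling cells, in the order Myog-low, onset, members (red), intermediate and late, each axis starting at 0. Per total UMIs, Myod1, Mybpc1 and Rbm24 are highest in the members (with TMM factors Myod1 and Mybpc1 are within a log2 ratio of 0.09 of the cells with more Acta1 and Myh3), Actc1, Mymk and Mymx are well above the onset level in the members and higher still in late cells, and Mef2c and Casq2 are high only in the last 2 groups.

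Among genes of cell cycle exit, the kinase inhibitor genes Cdkn1a and Cdkn1c were higher in the members than in onset cells, and Cdkn2b, Ccnd1 and Ccnd2 were lower. Cdkn1c, which encodes the cyclin-dependent kinase inhibitor p57, was 200, 222, 225 and 222 CPM in the members against a mean of 13.0 CPM in onset cells. Most of this level came from 36 cells described below, and the other 266 members had 20.6 CPM. The difference over all members was 16.7-fold, with a log2 ratio of 3.96 (3.56 to 4.37), the highest of all genes called. Its level was 221 CPM in intermediate and 114 CPM in late cells. Against the cells with more Acta1 and Myh3 the log2 ratio was 0.21 and became −0.09 with TMM factors, so no direction is given for that comparison. Cdkn1a, which encodes p21, was 1356, 1315, 1349 and 1340 CPM, 2.47-fold above the 543 CPM of onset cells and below the 2697 CPM of cells with more Acta1 and Myh3. Rb1, the retinoblastoma protein that holds back E2F factors, was 86.2 CPM in onset cells, 245 in the members and 249 in the cells with more Acta1 and Myh3.

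Of the D-type cyclins, Ccnd1 and Ccnd2 were lower than in onset cells and Ccnd3 was not called. Ccnd1, cyclin D1, was 387 CPM in Myog-low, 190 in onset, 68.1 in member and 6.48 in late cells. Ccnd2 was 66.3, 34.4, 5.12 and 1.59 CPM. Ccnd3 was 319, 358, 330 and 341 CPM. Of 15 genes of the cell cycle exit list past the minimum against onset cells, 4 were higher (Cdkn1a, Cdkn1c, Rb1 and Gadd45b) and 3 lower (Cdkn2b, Ccnd1 and Ccnd2). Replication and mitosis genes were low by the choice of cells, since Mki67 and Top2a were used by the rule. None of 12 past the minimum differed 2-fold from onset cells. Against the cells with more Acta1 and Myh3, 8 of 10 were higher in the members, among them Cenpf, a kinetochore protein, at 30.4 against 9.43 CPM and Mcm6, a helicase subunit, at 24.4 against 9.13 CPM. Cenpf and Mcm6 passed the minimum only through the members, which fixed their direction. With TMM factors 3 of 10 were called.

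Of 15 stem and Notch genes past the minimum, 7 were lower in the members than in onset cells and none higher, with a list median of −0.50. Pax7, the transcription factor of muscle stem cells, was 12.3, 8.56, 8.78 and 13.7 CPM in the 4 files, against means of 130 CPM in Myog-low and 69.5 CPM in onset cells. The log2 ratio to onset cells was −2.60 (−3.11 to −2.08). At 5000 UMIs a Pax7 UMI was found in 4.14% of members and 44.9% of Myog-low cells (8.69 and 63.0% without thinning), and in 1.69% of cells with more Acta1 and Myh3. Myf5, the factor of early myoblasts, was 81.3 CPM in onset cells and 16.2 CPM in the members, a log2 ratio of −2.27. The receptor Notch3 was 73.7 CPM in onset cells and 17.8 in the members, its target Hes1 48.1 and 10.3 CPM and its target Heyl 22.8 and 7.75 CPM.

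Megf10, an engulfment receptor of muscle stem cells, was 235 CPM in onset cells and 360 CPM in the members, and was not called. The Notch ligand Dll1 was 46.8, 41.2, 45.2 and 45.6 CPM in the members, 26.9 CPM in onset, 27.5 CPM in intermediate and 9.98 CPM in late cells. Its log2 ratio to onset cells was 0.72 (0.34 to 1.09), under the 2-fold line. Against the cells with more Acta1 and Myh3, 5 of 10 genes of the list were higher in the members (3 of 12 with TMM factors), most of them at a level between those of both neighbours. Spp1, the secreted protein osteopontin, was 534 CPM in onset cells, 114 in the members and 53.0 in the cells with more Acta1 and Myh3. Mgp, matrix Gla protein, was 556, 163 and 58.9 CPM, and the hepatocyte growth factor receptor Met 71.7, 27.4 and 12.3 CPM. The fibroblast growth factor receptor Fgfr4 was 161, 118 and 40.4 CPM.

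Fusion genes were present in the members at an intermediate level. Mymx, which encodes Myomixer, was 209, 212, 210 and 198 CPM against 25.8 CPM in onset cells and 492 CPM in cells with more Acta1 and Myh3. It was 8.03-fold above the onset level, a log2 ratio of 2.96 (2.66 to 3.27). A Mymx UMI was found in 48.2% of members at 5000 UMIs, 2.26% of Myog-low cells and 9.49% of onset cells (60.6, 4.81 and 16.8% without thinning). Mymk, which encodes Myomaker, was 584, 582, 598 and 593 CPM, 3.48-fold above the 169 CPM of onset cells, and 1393 CPM in the cells with more Acta1 and Myh3. Elmo1, an adaptor of Rac activation, was 7.67 CPM in onset cells and 43.6 CPM in the members, and 16.1 CPM in late cells. The adhesion molecule Jam3 was 160, 317, 325 and 210 CPM in onset, member, intermediate and late cells. Of 24 fusion and adhesion genes past the minimum against onset cells, 3 were higher and 3 lower (Cdh11, Boc and Kirrel). Cav3, the muscle caveolin, and Dysf, the membrane repair protein dysferlin, were still at 22.1 and 13.2 CPM in the members against 283 and 88.4 CPM in the cells with more Acta1 and Myh3.

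Troponin and tropomyosin genes were all past the minimum but for 1, and 5 of 11 were higher in the members than in onset cells, 1 lower. Tnnt2, cardiac troponin T, was 750, 719, 769 and 800 CPM against 215 CPM in onset cells, a log2 ratio of 1.82 (1.70 to 1.93). Tnnt3, fast troponin T, was 1609 against 770 CPM, Tnni1, slow troponin I, 354 against 92.9 CPM, and Tnnc1, slow troponin C, 316 against 149 CPM. Tnnt1 at 1687 against 925 CPM missed the 2-fold line. Tpm4, a nonmuscle tropomyosin, was lower, at 73.2 against 148 CPM, a call that was lost with TMM factors and after centring. Against the cells with more Acta1 and Myh3, 7 of 11 were lower in the members and none higher, the largest gap being that of Tnnc1 (316 against 2266 CPM).

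Myosin and actin genes spread widely around the members. Actc1 was 818, 805, 811 and 834 CPM in the 4 files, 13.0-fold above the 63.0 CPM of onset cells, with a log2 ratio of 3.68 (3.49 to 3.87). Thinned to 5000 UMIs, 53.6% of members had an Actc1 UMI, against 15.7% of Myog-low, 18.7% of onset cells and 90.6% of cells with more Acta1 and Myh3 (62.3, 27.8, 30.3 and 94.2% without thinning). Actc1 was still 4.47-fold below the cells with more Acta1 and Myh3. Acta1, a gene of the rule, was 347 CPM in the members and 6248 CPM in the latter, which the rule fixed. Of 16 genes of the list past the minimum against onset cells, 7 were higher and none lower: Actc1, Myh1, Myl1, Myl4, Mylpf, Mybph and Mylk4. Myh1, an adult fast myosin heavy chain, was 18.3 CPM in onset cells, 99.9 in the members and 2569 in late cells. The perinatal myosin Myh8 was 9.12 CPM in the members and 187 CPM in the cells with more Acta1 and Myh3.

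Mybpc1, the slow form of myosin-binding protein C, differed from the genes above and was near its late level in onset cells. It was 1139, 1185, 1175 and 1185 CPM in the members, 860 in onset, 956 in intermediate and 850 CPM in late cells. The members thus had its highest level, though by less than 2-fold, and with TMM factors the log2 ratio to the cells with more Acta1 and Myh3 was 0.05. Cytoplasmic Actb was 2636 CPM in the members and 1272 CPM in the cells with more Acta1 and Myh3, the only gene of the list that was higher in the members, and not called with TMM factors. Reads of closely related actin and myosin genes can be split by the counting, so their ratios are less certain than those of single-copy genes.

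Among 32 genes of sarcomere assembly past the minimum against onset cells, 11 were higher in the members and none lower, with a list median of 0.76. They included thin-filament and Z-disc proteins at low levels. Csrp3, muscle LIM protein, was 22.2, 24.0, 22.6 and 24.2 CPM against 2.68 CPM in onset cells and 477 CPM in late cells. Lmod2, a leiomodin that elongates thin filaments, was 61.7, 47.4, 54.4 and 59.3 CPM against 8.12 and 330 CPM. Smpx, a small costamere protein, was 51.6 CPM against 9.71 and 754 CPM. The structural genes of higher level were closer to the onset cells: Neb, nebulin, was 1533 against 1082 CPM and Ttn 3085 against 1769 CPM. Against the cells with more Acta1 and Myh3, 29 of 37 were lower in the members and none higher, with a median of −1.45. Some of the 37 passed the minimum only through the cells with more Acta1 and Myh3, which fixed their direction. TMM factors gave 32 of 37.

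The genes of lowest ratio to the cells with more Acta1 and Myh3 had few UMIs in the members. They passed the minimum only through the other cells, which fixed their direction. Casq2, the calcium store protein calsequestrin 2, was 5.97, 5.60, 7.09 and 6.87 CPM in the members, 1.95 CPM in onset cells, 92.4 CPM in intermediate and 412 CPM in late cells. The log2 ratio to the cells with more Acta1 and Myh3 was −4.71 (−5.32 to −4.13), the lowest of all called genes. A Casq2 UMI was found in 2.29% of members at 5000 UMIs, 0.65% of Myog-low cells and 40.5% of cells with more Acta1 and Myh3 (5.30, 1.11 and 54.3% without thinning). Cox6a2, the muscle form of a cytochrome oxidase subunit, was 5.54 against 152 CPM, Ckm, muscle creatine kinase, 6.71 against 130 CPM, and Tcap, the titin cap telethonin, 13.1 against 173 CPM. Itgb1bp2, the chaperone melusin, was 6.54 against 152 CPM, and Sorbs2, a Z-disc adaptor, 11.2 against 207 CPM. Fabp3, a fatty acid carrier, was 3.89 against 74.0 CPM. The Z-disc protein Myoz2 rested on 2.5 UMIs per file in the members, with a log2 ratio of −4.50 (−5.17 to −3.45). Frem2, Folr1, Dpysl5 and Fn3k also rested on fewer than 3 UMIs per file, with log2 ratios of −4.53 (−5.05 to −3.42), −4.38 (−4.69 to −3.23), −4.34 (−4.74 to −3.15) and −4.30 (−4.58 to −3.12).

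Calcium handling genes were split. Of 22 past the minimum against onset cells, 5 were higher in the members (Srl, Hrc, Sln, Tmem38a and Orai1) and none lower. Orai1, the store-operated calcium channel, was 109 against 38.6 CPM, and Tmem38a, a cation channel of the sarcoplasmic reticulum, 79.6 against 28.2 CPM. The calcium release channel Ryr1 was 82.3, 157, 189 and 253 CPM in Myog-low, onset, member and late cells, and its partner Stac3 39.7, 72.7, 101 and 124 CPM. The voltage sensor Cacna1s was 7.63 CPM in the members and 115 CPM in late cells. In the comparison with the cells of more Acta1 and Myh3, 12 of 25 were lower in the members and none higher.

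Of 20 genes of the synapse and the dystrophin complex, 2 were higher in the members than in onset cells and none lower. Sntb1, a syntrophin, was 520 against 151 CPM, and Dok7, an activator of the receptor MuSK, 65.2 against 31.5 CPM. Dmd, dystrophin, was 184 CPM in the members and 1595 CPM in late cells. Of 13 muscle energy metabolism genes, 1 was higher than in onset cells, the oxygen carrier Mb at 93.3 against 28.9 CPM, and none lower. Of 19 past the minimum in the other comparison, 10 were lower than in the cells with more Acta1 and Myh3. In the list of growth factors and noncoding loci, the ligand Wnt9a was 46.5 against 9.83 CPM in onset cells, the only gene of 19 that was higher, and 4 were lower: Igfbp5, Fstl1, Tgfbr2 and Angpt1. The noncoding RNA Meg3 was 21.9 CPM in the members, 24.9 in onset cells and 550 CPM in late cells. Its imprinted neighbour Rian was 6.19, 5.84 and 146 CPM. Of 7 stress genes past the minimum, none differed 2-fold from onset cells and 1, Egr1, was lower than in the cells with more Acta1 and Myh3 (13.9 against 55.6 CPM).

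The level of each gene was placed as a share of its difference between Myog-low and late cells, for the 742 genes at least 2-fold higher in late cells. All cells came from 1 sort after 5 days of culture, so the shares describe levels and not a course in time. This description was added after the values were seen. The median gene stood at 9.57% of this difference in onset cells and at 27.8% in the members, with quartiles of 6.87 and 52.9% in the members. The list medians differed. By the choice of groups, Acta1 and Myh3 together were under 1000 CPM in the members and at least 10000 CPM in late cells. Genes that vary with Acta1 and Myh3 were thereby placed low in part by that choice, and the order of the lists is a description only. The median was 122% for 6 cell cycle exit genes, 58.6% for 11 myogenic factors, 28.5% for 21 calcium handling genes, 28.3% for 10 genes of the synapse and dystrophin complex, 17.1% for 6 fusion genes, 16.6% for 9 troponins and tropomyosins, 14.1% for 42 sarcomere assembly genes, 11.4% for 13 metabolism genes, 10.0% for 12 myosins and actins and 7.83% for 7 growth factors and noncoding loci. Within a list the genes were uneven: Mybpc1 stood at 169% and Myoz2 at 0.78%, and among Mef2 genes Mef2a stood at 101%, Mef2d at 93.2% and Mef2c at 5.15%. Cell cycle exit genes ranged from 35.1% (Cdkn1a) and 57.0% (Gadd45a) through 113% (Gadd45b), 131% (Rb1) and 192% (Gadd45g) to 195% (Cdkn1c, mostly from 36 cells). Gadd45b, Rb1, Gadd45g and Cdkn1c were lower in late than in intermediate cells, which raised their shares. Listed genes not 2-fold higher in late cells, such as Ccnd1 and Ccnd3, did not enter, so the median does not show a completed exit.

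**Figure D3:**
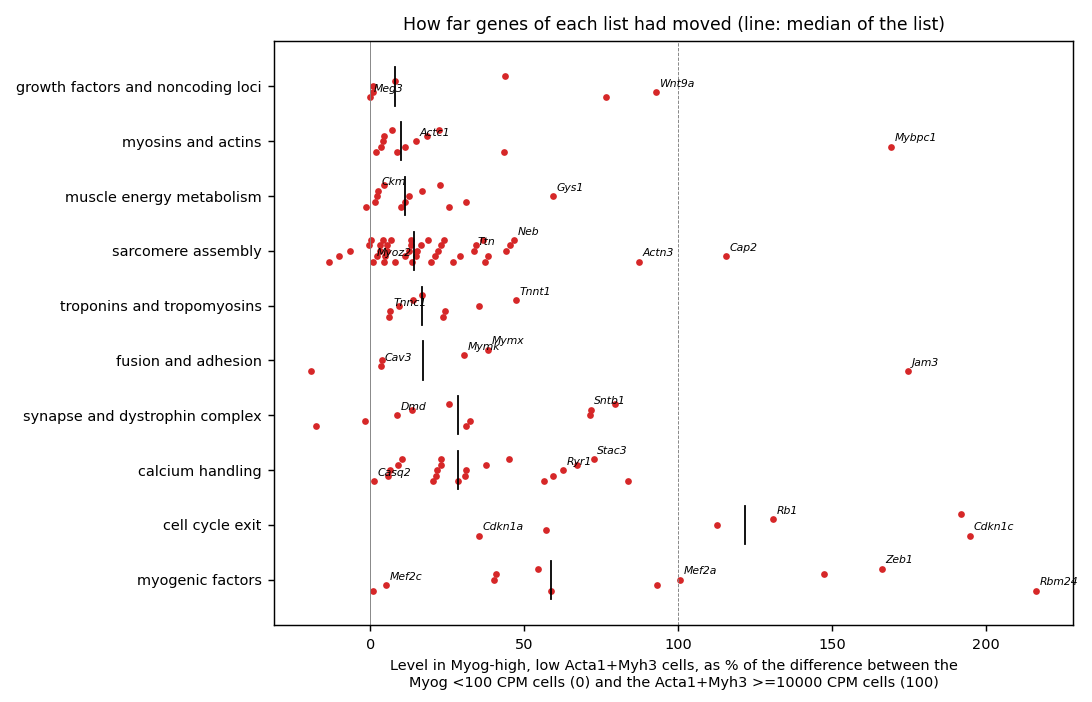
Each point is a gene of 1 list, placed on the x axis by its level in the members as a percentage of the way from the Myog-low cells (0) to the late cells (100), with a vertical line at each list's median. Per total UMIs, cell cycle exit genes (median 122%) and myogenic factors (58.6%) lie to the right of sarcomere assembly (14.1%) and myosins and actins (10.0%). This order is partly set by the Acta1 and Myh3 borders of the groups. The cell cycle exit genes range from 35.1% (Cdkn1a) to 195% (Cdkn1c). Single genes such as Rbm24, Mybpc1 and Jam3 lie beyond 100%. The positions describe levels and not a course in time.

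Only 7 of 5694 genes with at least 20 CPM were at least 1.5 times as high in the members as in the onset, intermediate and late cells in every file. Sox8, a transcription factor of the SoxE group, led them with 45.1, 42.8, 44.9 and 43.0 CPM in the 4 files. Its mean was 17.7 CPM in onset, 15.2 in intermediate, 1.74 in late and 2.01 CPM in Myog-low cells. The choice of these genes required a higher level in every file, so the likeness of the 4 files adds no support. Sema6a, a transmembrane semaphorin, was 121 CPM in the members, 68.0 in onset, 65.2 in intermediate and 20.9 CPM in late cells. Slc24a3, a sodium, potassium and calcium exchanger, was 26.9 CPM against 11.9 and 12.3 CPM in onset and intermediate cells, and Lrrc8b, a subunit of volume-regulated anion channels, 21.2 against 9.72 and 11.2 CPM. Ip6k2, an inositol phosphate kinase, was 40.9 against 23.3 and 22.5 CPM, Fdft1, squalene synthase, 74.4 against 42.4 and 42.9 CPM, and Mon2, a protein of endosome traffic, 112 against 64.6 and 65.4 CPM. The borders lie within a continuum of cells and help to set how high such genes stand.

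**Figure D4:**
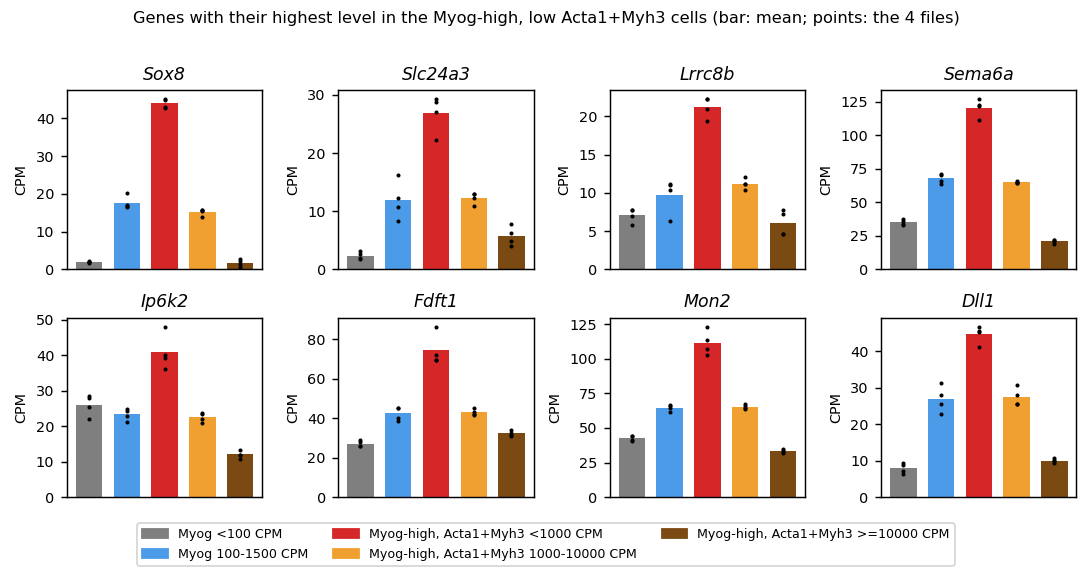
Bars give the mean CPM of the 4 files (points) in Myog-low, onset, member (red), intermediate and late cells for the 7 genes that were at least 1.5 times as high in the members in every file, and for Dll1, which was highest in the members by a smaller margin. Sox8 falls from 44.0 CPM in the members to 1.74 CPM in late cells.

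The genes of highest ratio to the cells with more Acta1 and Myh3 were mostly genes lower in the members than in onset and Myog-low cells. Robo1 and Tafa5 apart, the 12 genes named here were under 20 CPM in the cells with more Acta1 and Myh3. Genes under 20 CPM there passed the minimum only through the members, which fixed their direction. Of the 12 with the highest log2 ratio, 10 were below both the onset and the Myog-low level: Pde7b, a phosphodiesterase, was 96.3 CPM in Myog-low, 62.61 in onset, 45.1 in member and 6.82 CPM in intermediate cells, a log2 ratio of 2.72 (2.38 to 3.07). Robo1, a receptor for Slit ligands, was 219, 220, 127 and 33.4 CPM in the same order, and the transcription factor Sox4 198, 150, 48.4 and 13.6 CPM. Tmeff2, Pdgfrl, Dpyd, Sulf1, Arhgap22, Arl4c and Tafa5 followed the same course. The chemokine receptor Ackr3 (26.2 CPM) and the sialyltransferase St3gal4 (51.5 CPM) were the 2 with a level at or above those of onset and Myog-low cells, at 24.0 and 36.5 CPM in onset cells.

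Against onset cells, the genes of highest ratio after Cdkn1c and Actc1 were Smim5 (49.6 against 4.71 CPM), Ablim3, an actin-binding LIM protein (49.6 against 5.08 CPM), 2310043L19Rik (30.7 against 2.94 CPM), Mymx, Dpp6, a potassium channel subunit (203 against 25.3 CPM), the potassium channel Kcnk13 (88.0 against 11.4 CPM), Csrp3, Frmd4b (46.1 against 6.38 CPM), Lmod2 and Tmcc3 (94.3 against 14.6 CPM). Frmd4b and Tmcc3 were 53.4 and 73.5 CPM in late cells, below the 84.3 and 125 CPM of intermediate cells. Of these genes of highest ratio, all but Actc1, Mymx and Dpp6 were under 20 CPM in onset cells. Genes under 20 CPM there passed the minimum only through the members, which fixed their direction. The genes of lowest ratio included Tm4sf1, a tetraspanin-like membrane protein (3.92 against 46.0 CPM), the water channel Aqp5 (2.06 against 26.3 CPM), Adamtsl3, Pax7, Ccnd2, Rgs4, Angpt1, Pde4b, Tenm4, Myf5 and Rnf150. Each of these named genes of lowest ratio was also lower in onset than in Myog-low cells. All of them were under 20 CPM in the members and passed the minimum only through onset cells, which fixed their direction.

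The members were not uniform. Thinned to 5000 UMIs, 3575 genes with a mean of at least 0.2 UMIs had a median variance-to-mean ratio of 1.09 over 284 members, where 1 is pure counting noise, and a 95th percentile of 1.82. The genes of highest ratio were Cdkn1c (14.1), Car3, carbonic anhydrase 3 (13.2), Actc1 (13.1), the ferritin heavy chain Fth1 (12.1), Ttn (10.1), Ryr3 (8.91), the hormone gene Sct (7.90), Mylpf (6.82), the calcium-binding protein S100a4 (6.32) and Ankrd1 (6.02). Myog itself had 4.21. For the same relative spread this ratio grows with the mean, so its order is not one of relative spread. The mean was 27.6 thinned UMIs for Fth1, 15.0 for Ttn, 1.19 for Cdkn1c and 0.32 for Ryr3.

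Cdkn1c was concentrated in few cells. A level of 500 CPM, chosen after the values were seen, was reached by 36 members (11.9%), which held 91.5% of its UMIs, and 4 members lay between 400 and 625 CPM. Those 36 cells had 2989 CPM of Actc1 against 557 CPM in the other 266, 4419 against 3107 CPM of Myog, 1442 against 678 CPM of Tnnt2 and 205 against 81.1 CPM of Tmcc3. They did not have more Ttn (2466 against 3159 CPM), had less Myod1 (545 against 777 CPM) and less Ankrd1 (151 against 464 CPM), and Acta1 was 379 against 343 CPM with overlapping counting intervals. The rule held Acta1 and Myh3 together under 1000 CPM in every member, so Acta1 could differ only within that limit. Over all groups the share of cells with a Cdkn1c UMI at 5000 UMIs was 17.6% in the members, 16.6% in cells with more Acta1 and Myh3, 4.49% in onset cells and 3.42% in Myog-low cells (21.9, 20.5, 7.66 and 5.30% without thinning).

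The members were split by Myog and, separately, by the Acta1 and Myh3 sum. In 137 members with Myog under 3000 CPM, 148 of 3000 to under 6000 CPM and 17 of at least 6000 CPM, Actc1 was 268, 1226 and 2949 CPM, Mymk 401, 734 and 1277 CPM, Tnnt2 442, 989 and 2056 CPM and Cdkn1c 70.5, 316 and 897 CPM. The Cdkn1c means came from a minority of cells: its median was 0 CPM in each bin, and 105, 93 and 9 cells had no Cdkn1c UMI. Over the same bins Acta1, which the rule capped, was 320, 374 and 387 CPM and Ttn 2847, 3354 and 3058 CPM. Id3 went from 690 to 394 and 293 CPM, Spp1 from 189 to 41.0 and 8.22 CPM, and Myod1 from 833 to 685 and 501 CPM. Median depth also fell over these bins, from 10433 to 8573 and 7355 UMIs per file, and its part was not tested. Across the 302 cells, Spearman's rho with Myog was 0.60 for Mymk, 0.49 for Actc1, 0.47 for Tnnt2, 0.12 for Ttn, 0.11 for Mylpf and −0.49 for Id3. With the Acta1 and Myh3 sum it was 0.16 for Mymk, 0.22 for Actc1, 0.30 for Tnnt2, 0.25 for Ttn, 0.40 for Mylpf and −0.03 for Id3. These values describe cells that share a library and a total, and the Acta1 and Myh3 sum spans only the range that the rule allowed.

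Along the Acta1 and Myh3 sum, 47 members were under 100 CPM, 87 at 100 to under 300 and 168 at 300 to under 1000 CPM. Mylpf was 976, 1261 and 1982 CPM over these bins, Ttn 2017, 2976 and 3401 CPM, Actc1 211, 762 and 994 CPM and Myl4, the embryonic light chain, 140, 158 and 265 CPM. Mybpc1 was 1203, 1232 and 1134 CPM and Rbm24 821, 779 and 693 CPM. The 47 cells with the least Acta1 and Myh3 thus had 2017 CPM of Ttn, against 1769 CPM in onset cells and 588 CPM in the Myog-low cells. Robo1 was 222, 142 and 96.4 CPM and Sox4 91.6, 53.9 and 35.2 CPM.

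**Figure D5:**
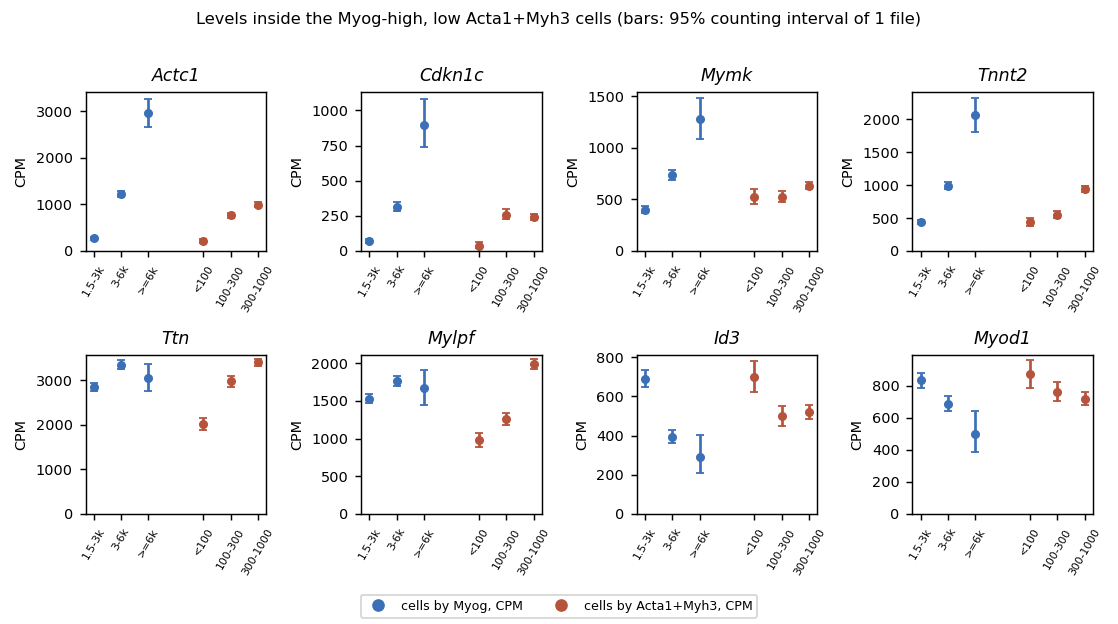
Points give the CPM of 8 genes in the members split by Myog (blue, 137, 148 and 17 cells) and by Acta1 and Myh3 together (brown, 47, 87 and 168 cells), with 95% counting intervals at the UMI count of 1 file and axes starting at 0. Actc1 and Tnnt2 are higher in the upper bins of both splits, and Ttn and Mylpf differ more between the lowest and highest Acta1 and Myh3 bins than between the Myog bins.

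Endothelial, immune, epithelial and Schwann markers were low in the members, while some fibroblast, adipocyte and pericyte markers were present. The listed endothelial markers at 0 CPM were Cdh5, Kdr, Tie1 and Emcn. Of the immune list Ptprc, Adgre1 and C1qa were at 0 CPM, and of the fibroblast list Pdgfra and Lum. All of these but Emcn and Pdgfra were also at 0 CPM in Myog-low and onset cells. The summed endothelial, immune and epithelial lists were 0.60, 0.59 and 0.51 CPM. The 6 fibroblast markers summed to 111 CPM, with 2 of 6 at or above 5 CPM, and a range of 104 to 120 CPM over the files, against 287 CPM in Myog-low and 46.7 CPM in the cells with more Acta1 and Myh3. The 3 adipocyte markers summed to 60.6 CPM, all of it Lpl, as Adipoq and Plin1 were at 0. The 5 pericyte markers, which include Notch3, summed to 36.8 CPM with Kcnj8 at 0. The 3 Schwann markers summed to 2.37 CPM. The part of the fibroblast, adipocyte and pericyte transcripts in the differences was not tested.

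The choice of cells carried its own counting error. Applied to 1 file at a time, the rule found 281 to 301 cells, and 140 cells met it in every file alone. No doublet caller was run. Of the members, 0.33% were among the 5% of kept cells with the most UMIs. The share was 0.53% in Myog-low cells, 0.78% in onset cells and 2.88% in the cells with more Acta1 and Myh3. Whether the members held doublets was not tested.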

How the data were processed

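Single-cell 3′ RNA libraries of 4 samples of 1 group were deposited as raw counts of UMIs for each barcode and gene; per the file headers they were made with Cell Ranger 7.1.0. The submitters' processing notes name Cell Ranger 3.1.0 and the builds mm10 and GRCm39 without a role; barcode calling and intron counting are not given in the sources used here. Of 32285 gene identifiers, 32158 (99.6%) were found in GENCODE M21. Barcodes in all 4 files with a mean of at least 1000 genes and under 10% mitochondrial UMIs were kept. Per file, UMIs of a group of cells were summed and scaled to CPM, and the values of the 4 files were averaged (pseudocount 1 CPM, minimum 20 CPM and 50 UMIs). Because the files hold the same cells (whether as repeat libraries or as repeat runs of 1 capture cannot be told apart), n is 1 and no p-value was computed. Level intervals are exact Poisson, share intervals exact binomial (Clopper-Pearson) and ratio intervals conditional binomial, at 95% and for the UMIs of 1 file; PCR and shared cells add dependence they do not cover. In simulated data all 3-fold and 4-fold changes (100 genes each) and 0 of 5063 unchanged genes were called in the first comparison. The simulation held counting noise only, without variation between cells, and no changes near 2-fold or near the level minimum. It checks the calculation and gives no error rate for the real calls. Named genes were the 12 highest and 12 lowest log2 ratios of each comparison, the genes highest in the members, the 10 most variable genes and members of the 13 gene lists; 1 gene that the rule names is not reported here. The members and lists were chosen with earlier results of these data known. TMM factors came from edgeR 4.0.16. Promoters are from RefSeq on GRCm38.p6. Alternatives covered scaling, minimum, fold, each border, cell filter, depth and leaving out each file.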

Additional observations from a re-analysis of the deposited data

Results flagged for a closer look

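In 2 of 31 sets of 4 file values that were compared, 1 file stood apart from the other 3 by Dixon's criterion, and chance gives about 5% of such sets. Cdkn1c in the members was 199.9 CPM in replicate 1 and 222 to 225 CPM in the others. Fdft1 in the members was 86.4 CPM in replicate 4 and 69.5 to 72.3 CPM in the others. The files of onset cells had 38.6 to 45.3 CPM, a gap that the choice of Fdft1 as highest in the members required.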

How the results depend on the processing

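Of 108 group-level values recomputed under an alternative, 82 stayed within 1.5 times the reported count, or, for the number of members, within its counting interval, and 26 moved further. The balance of higher and lower genes turned under some settings: 334 to 297 with mitochondrial and ribosomal protein genes left out, and against onset cells 173 to 169 with TMM factors. It also turned in the first comparison with no minimum level and against onset cells with a 4-fold line (counts below). Leaving out each file in turn gave 300 to 301 members, 238 to 252 higher and 274 to 285 lower genes against the cells with more Acta1 and Myh3, and 152 to 161 higher and 213 to 242 lower against onset cells. Genes higher than in the cells with more Acta1 and Myh3 numbered 101 with TMM factors, 130 after centring, 152 with a pseudocount of 5 CPM and 130 with a Myog border of 2500 CPM. With no minimum level the 4 counts were 680, 637, 289 and 734, and with a 4-fold line 11, 101, 32 and 22. Against intermediate cells only, 122 were higher and 183 lower, against late cells only 785 and 444, and against Myog-low in place of onset cells 418 and 615. The number of members was 356 with a Myog border of 1000 CPM, 195 with 2500 CPM, 189 and 469 with Acta1 and Myh3 under 500 and 2000 CPM, 217 and 337 with Mki67 and Top2a under 25 and 150 CPM, 237 under a filter of 2000 genes and 5% mitochondrial UMIs, and 266 within 20000 to 60000 UMIs over the files, a window chosen after seeing the data. For the 12 highest and 12 lowest genes of each comparison, 421 of 456 recomputed log2 ratios to the cells with more Acta1 and Myh3 stayed within their counting interval. To onset cells 443 of 456 did. None changed sign, but these are the extremes of the same data, so a change of sign was hardly possible. Gene levels in the members were less stable, with 356 recomputed values inside their counting interval and 154 outside. For shares of cells with a gene, 22 stayed inside and 34 moved when thinning was changed or left out. No paired analysis was possible because the samples form 1 group and no test was made.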
